A study of Homo sapiens with 24 samples.

Results

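The tripartite motif (TRIM) genes were followed in RNA-seq libraries of clear cell renal cell carcinoma cells that received a control siRNA or PD-L1 siRNA, with or without IFNγ. Members were the rows of the deposited count table whose Ensembl identifier belongs to a protein-coding gene with a symbol of TRIM followed by a digit, which gave 58 of 39321 rows. The annotation holds 77 such genes, and the other 19, which include *TRIM40*, *TRIM58* and the *TRIM43*, *TRIM49*, *TRIM51* and *TRIM64* copies, were not analysed here.

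TRIM proteins share a RING domain that in most members acts as a ubiquitin ligase, B-box zinc fingers and a coiled coil through which they pair. Their last domain sets what they bind: a PRY-SPRY domain in many members of antiviral defence, a PHD finger with a bromodomain in the members that act on chromatin, a COS box in members bound to microtubules or muscle filaments, and NHL repeats in members that bind RNA or cargo. Several members regulate the sensing of foreign nucleic acids, either by attaching ubiquitin to RIG-I, MAVS, cGAS or STING or by limiting that pathway, and some of these are textbook interferon-stimulated genes. Interferons act on such genes through transcription factors that bind the GAS and ISRE elements of promoters.

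The 24 libraries hold 12 labelled A498 and 12 labelled 786-O, both lines of this tumour, with 3 replicates in each of 4 groups per line. Cnsi cells received a pool of non-targeting siRNA and PD-L1si cells a pool against PD-L1, both at 20 nM, and the groups named IFNγ were then kept in 50 ng/mL of the cytokine for 24 hours. The growth protocol given for every sample describes lines that carry a Renilla luciferase gene from a lentivirus and were selected with puromycin, without saying whether the RNA came from them. The labels call the PD-L1si cells a knockout, while their protocol describes transient siRNA. No label says that replicates came from separate cultures, so that p-values measure the spread between these libraries, which may be technical. The lines were sequenced on different instruments, so that line and instrument cannot be told apart. Line names are those of the sample labels, while the study's tables by line appear to use both names the other way round. Which naming is right was not settled here, so that the names may be exchanged in every value given by line.

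Total counts ran from 19256316 to 30350461 per library. *CD274*, the gene of PD-L1, stood at 194 ± 4.72 CPM (counts scaled to library size by TMM; mean ± SD, n = 3) with Cnsi IFNγ and at 27.7 ± 0.779 CPM with PD-L1si IFNγ in libraries labelled A498, and at 60.4 ± 5.10 and 31.4 ± 1.17 CPM in libraries labelled 786-O. Of 11 markers of kidney tubule and clear cell renal carcinoma, 9 to 11 reached 1 CPM in every group, with *PAX2* and *NNMT* at 0 in the libraries labelled 786-O. None of the 4 leukocyte markers in the table reached 1 CPM in any group. The summed level of 4 fibroblast markers in libraries labelled A498 was between 6.90 and 7.81 CPM with Cnsi, 1.92 and 2.09 CPM with Cnsi IFNγ, 12.4 and 12.6 CPM with PD-L1si and 2.32 and 3.53 CPM with PD-L1si IFNγ, and in libraries labelled 786-O it was at most 0.0358 CPM. That of 3 endothelial markers was at most 0.0399 CPM in libraries labelled A498, and in libraries labelled 786-O it was between 0.107 and 0.229 CPM without IFNγ and between 0.630 and 1.21 CPM with it. *PAX2*, *NNMT*, *COL1A1*, *COL1A2*, *DCN* and *VWF* were at 0 in every group labelled 786-O. Such zeros may mark rows that were not measured there, as described below for the members. They are therefore not read as absence. The part of all the markers above in the results below was not tested.

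Promoter sequences are shown first because the members that rose with IFNγ are read beside them. RefSeq windows (GRCh38.p14, from 250 bases before to 50 bases after a transcription start) were found for 45 of the 58 members, as 63 windows, and not for the other 13. The ISRE was searched as 2 copies of TTTC set 2 bases apart, on both strands, and the GAS element as TTCNNNGAA, which reads the same on both, with overlapping matches kept. The ISRE letters stood in 9 of the 63 windows (14.3%), against 3.57% of all 35116 windows, and the GAS letters in 8 windows (12.7%), against 7.66%. The 9 ISRE windows belonged to *TRIM14*, *TRIM21*, *TRIM26* and *TRIM69*, which rose with IFNγ in both lines as described below, to *TRIM5* and *TRIM44*, which passed the threshold in neither, to *TRIM2* and *TRIM16*, which were tested in libraries labelled A498 and did not pass there, and to *TRIM34*, which was not tested. They were 4 of the 21 windows (19.0%) of the 16 members that rose in either line and 5 of the 42 windows (11.9%) of the other 29 members. The GAS letters stood in 3 of the same 21 windows (14.3%), those of *TRIM15* and *TRIM46*, and in 5 of the other 42 (11.9%). Windows of a gene can overlap, and the same GAS match of *TRIM2* was counted in 2 of these windows. The 30 bases around the match are printed for 6 genes, 5′ to 3′ on the gene's strand, with the matched letters in capitals.
*TRIM21* (chr11:4393663-4393692, minus strand): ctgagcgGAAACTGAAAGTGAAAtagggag
*TRIM14* (chr9:98119229-98119258, minus strand): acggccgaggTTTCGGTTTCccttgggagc
*TRIM26* (chr6:30213578-30213607, minus strand): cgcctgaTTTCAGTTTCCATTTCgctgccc
*TRIM69* (chr15:44736456-44736485, plus strand): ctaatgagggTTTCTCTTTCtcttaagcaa
*TRIM5* (chr11:5685082-5685111, minus strand): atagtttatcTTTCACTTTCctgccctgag
*TRIM44* (chr11:35662730-35662759, plus strand): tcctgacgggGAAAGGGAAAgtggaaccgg
*TRIM21* and *TRIM26* each held 2 overlapping matches, and the other 4 held 1. In *TRIM21* the match lay after the transcription start, at bases 18 to 33, and in the other 5 it lay before the start. A match is a run of letters, not a measured binding site.

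The 58 members were not measured evenly. A gene entered the test where any group held at least 10 of its counts in all, which held for 44 members in libraries labelled A498, for 46 in libraries labelled 786-O and for 40 in both. *TRIM2*, *TRIM8*, *TRIM16*, *TRIM34*, *TRIM36*, *TRIM54* and *TRIM63* were at 0 in all 12 libraries labelled 786-O, and *TRIM32* and *TRIM60* in all 12 labelled A498. These zeros move with the version of the gene identifier: of the 1443 protein-coding genes with over 1000 counts in libraries labelled A498 and none in libraries labelled 786-O, 16 (1.11%) carry the identifier version of the annotation used here, against 70.4% of the 9327 counted in both. These 7 members are therefore treated as not measured in libraries labelled 786-O, and *TRIM32* likewise in libraries labelled A498, since its identifier version differs too. The 8 members tested in neither line were *TRIM34*, *TRIM50*, *TRIM54*, *TRIM60*, *TRIM61*, *TRIM63*, *TRIM71* and *TRIM75*, among which the skeletal muscle ligase *TRIM63* and the stem cell gene *TRIM71* had at most 1 count in a library. Of the exon bases of *TRIM34*, 83.6% are shared with the readthrough gene TRIM6-TRIM34, as are 29.2% of those of *TRIM6*, and *TRIM73* and *TRIM74* are near-identical copies of each other, so that their counts are uncertain.

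In Cnsi cells without IFNγ, *TRIM28*, the KAP1 corepressor that silences retroelements with zinc finger proteins, had the highest level per kilobase of exon of all members in both lines, at 51.8 CPM per kb in libraries labelled A498 and 172 CPM per kb in libraries labelled 786-O. *TRIM56* and *TRIM44* followed in libraries labelled A498, with 16.9 and 14.3 CPM per kb, and *TRIM47* and *TRIM44* in libraries labelled 786-O, with 24.2 and 15.4 CPM per kb. Expression was broad, with a mean of at least 1 CPM for 40 members in libraries labelled A498 and 38 in libraries labelled 786-O, and of at least 10 CPM for 28 and 31 members.

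With the control siRNA, IFNγ raised 15 of the 44 members tested in libraries labelled A498. In libraries labelled 786-O it raised 14 of 45 without *TRIM72*, and the calls were 15 of 46 with it. A member is said to have risen or fallen where the adjusted p of edgeR's quasi-likelihood test, taken over all genes tested, was under 0.05 and its log2 fold change exceeded 0.5 in size. Over all genes tested, 18.2% rose and 18.5% fell in libraries labelled A498, and 11.1% rose and 7.39% fell in libraries labelled 786-O, and the 15 of 44 members in libraries labelled A498 make 34.1%. The 15 in libraries labelled 786-O include *TRIM72*, which passed the filter on low counts through its IFNγ groups alone and so had to be higher there. Without it, 14 of 45 members rose (31.1%), and over all genes 10.2% rose when such genes were left out. The members' shares stood above the background in both lines. That background holds coding and noncoding genes alike, while the members are protein-coding by rule. No share over protein-coding genes alone is given here. Falls were fewer, with 4 members (9.09%) in libraries labelled A498 and 0 in libraries labelled 786-O, where 4 members were lower and 18 higher by the adjusted p alone. By that measure 31 of 44 and 22 of 46 members passed in libraries labelled A498 and 786-O, against 61.3% and 38.8% of all genes. The median log2 fold change of the members was 0.19 in libraries labelled A498 and 0.05 in libraries labelled 786-O, against -0.03 and 0.0049 over all genes tested. In bulk RNA, a change in the number of cells that express a gene and in the RNA per cell cannot be told apart.

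**Figure D1:**
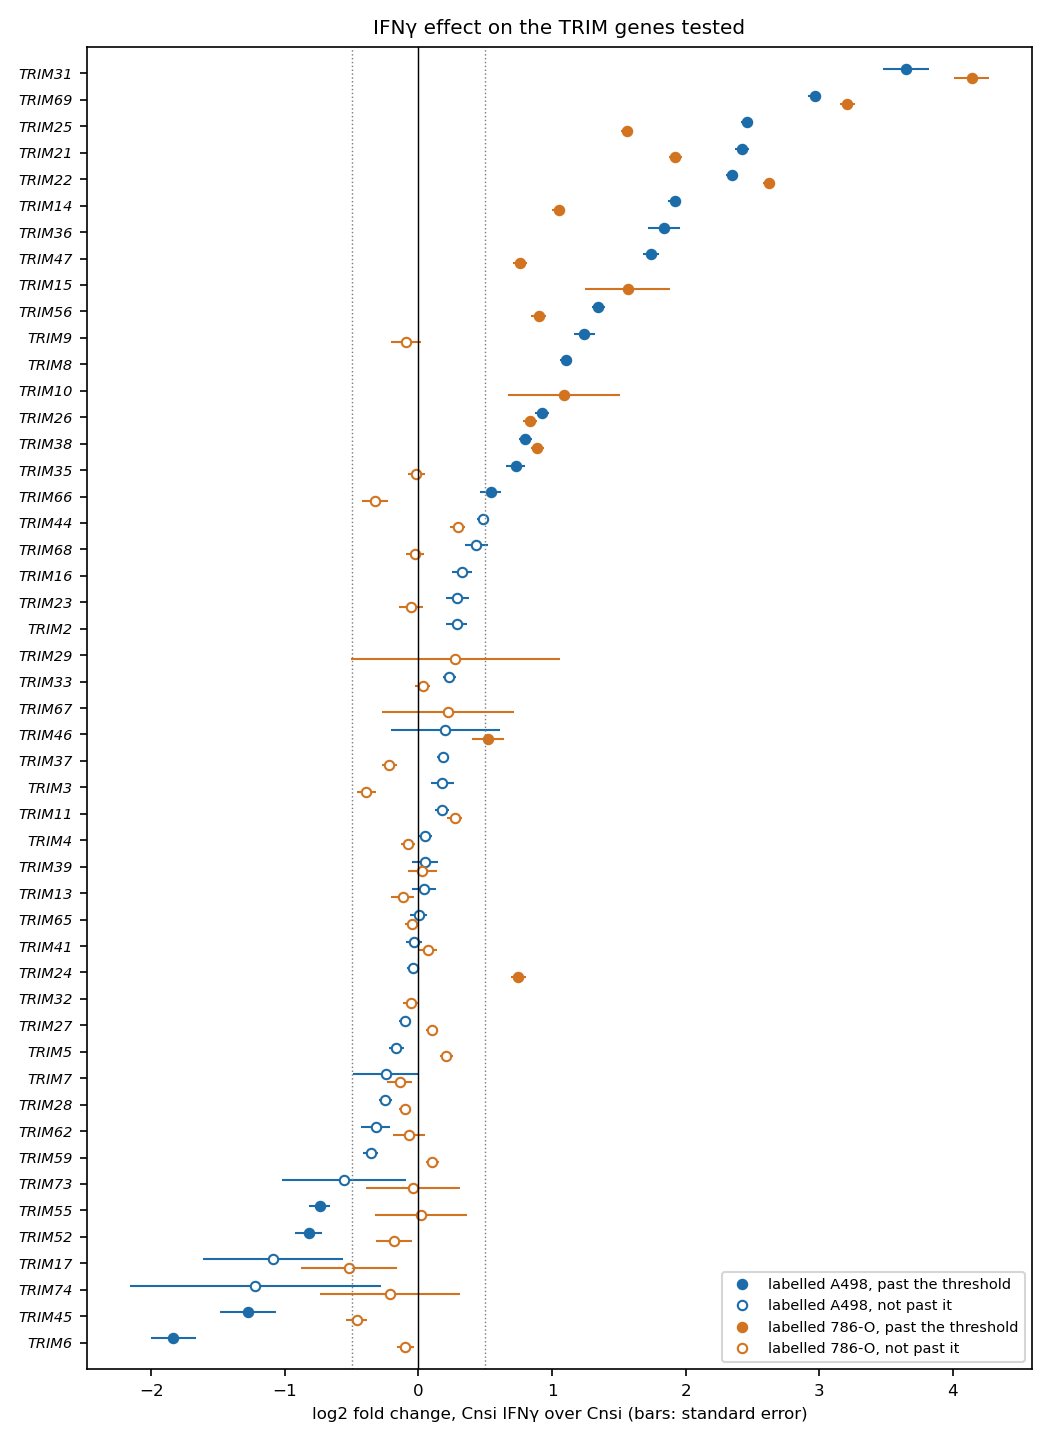
Log2 fold change with IFNγ in Cnsi cells (x axis) for each TRIM member tested (y axis, ordered by the value in libraries labelled A498 or, where that was not tested, in libraries labelled 786-O), in blue for libraries labelled A498 and orange for libraries labelled 786-O, with the standard error as a bar and filled points where the threshold was passed; *TRIM72*, with no count in the Cnsi libraries labelled 786-O, is left out. *TRIM31* stands farthest right in both lines, and *TRIM6* farthest left in libraries labelled A498.

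Of the 40 members tested in both lines, 10 rose in both, against 6.41% of all genes tested in both, namely *TRIM14*, *TRIM21*, *TRIM22*, *TRIM25*, *TRIM26*, *TRIM31*, *TRIM38*, *TRIM47*, *TRIM56* and *TRIM69*. Of these, 9 belong to the list of members with known antiviral or innate sensing roles, of which 16 were tested in libraries labelled A498 and 17 in libraries labelled 786-O, and *TRIM47* does not. Like the other lists, it was chosen with earlier results of these data known. The list had a median log2 fold change of 0.86 in libraries labelled A498 and 0.84 in libraries labelled 786-O, against -0.03 and 0.0049 over all genes tested. The list's other members past the threshold were 1 in libraries labelled A498, *TRIM6*, which fell, and none in libraries labelled 786-O.

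*TRIM25*, the ligase that modifies RIG-I after it binds viral RNA, lies on chromosome 17. In libraries labelled A498 it measured 118, 124 and 122 CPM with Cnsi and 662, 657 and 681 CPM with Cnsi IFNγ, a rise of 5.49-fold (log2 fold change 2.46, SE 0.040, adjusted p 7.41e-34). In libraries labelled 786-O it measured 146, 147 and 157 and 437, 452 and 442 CPM, a rise of 2.95-fold (log2 fold change 1.56, SE 0.047, adjusted p 1.08e-19). The groups did not overlap in either line. After IFNγ it was the most abundant of the 10 members by CPM in libraries labelled A498, and *TRIM22* was in libraries labelled 786-O.

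*TRIM14* and *TRIM31* act downstream at MAVS, the mitochondrial adaptor of RIG-I, the first as an adaptor without a RING domain and the second as a ligase. *TRIM14* measured 44.1, 45.7 and 48.7 CPM with Cnsi and 173, 169 and 181 CPM with Cnsi IFNγ in libraries labelled A498 (log2 fold change 1.92, SE 0.046, adjusted p 8.16e-29), and 75.8, 75.6 and 82.1 against 164, 162 and 157 CPM in libraries labelled 786-O (log2 fold change 1.05, SE 0.047, adjusted p 8.98e-16). Its smaller rise was that of the libraries labelled 786-O. *TRIM31* measured 1.08, 0.875 and 1.75 CPM with Cnsi and 15.6, 15.9 and 15.2 CPM with Cnsi IFNγ in libraries labelled A498, and 1.34, 0.751 and 1.17 against 19.2, 18.5 and 20.5 CPM in libraries labelled 786-O. Its rises, 12.6-fold (log2 fold change 3.65, SE 0.17, adjusted p 5.71e-16) and 17.6-fold (log2 fold change 4.14, SE 0.13, adjusted p 3.60e-19), were the largest of any member with counts in every Cnsi library.

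*TRIM56* promotes signalling by cGAS and STING, the sensors of cytosolic DNA. It measured 175, 189 and 199 CPM with Cnsi and 470.4, 469 and 496 CPM with Cnsi IFNγ in libraries labelled A498 (log2 fold change 1.35, SE 0.046, adjusted p 4.00e-24), and 136, 146 and 141 against 236, 279.6 and 273 CPM in libraries labelled 786-O (log2 fold change 0.90, SE 0.059, adjusted p 3.55e-12). *TRIM38* and *TRIM26*, also of the list of members with known antiviral or innate sensing roles, had smaller log2 fold changes. *TRIM38* went from between 39.05 and 41.5 CPM to between 69.5 and 70.8 CPM in libraries labelled A498 (log2 fold change 0.80, SE 0.048, adjusted p 9.25e-17), and from between 68.1 and 69.8 CPM to between 119.6 and 132 CPM in libraries labelled 786-O (log2 fold change 0.89, SE 0.048, adjusted p 4.60e-14). *TRIM26* went from between 34.05 and 34.9 CPM to between 61.7 and 68.8 CPM in libraries labelled A498 (log2 fold change 0.93, SE 0.053, adjusted p 2.29e-17), and from between 54.8 and 57.2 CPM to between 93.2 and 105 CPM in libraries labelled 786-O (log2 fold change 0.84, SE 0.051, adjusted p 4.30e-13). For all 3 genes the groups were apart in both lines.

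*TRIM69*, *TRIM21* and *TRIM22* act on viruses or virus transcription directly. *TRIM69*, which restricts vesicular stomatitis virus, measured 19.3, 21.03 and 18.98 CPM with Cnsi and 157, 152 and 155 CPM with Cnsi IFNγ in libraries labelled A498, a rise of 7.82-fold (log2 fold change 2.97, SE 0.050, adjusted p 1.38e-33). In libraries labelled 786-O it measured 14.6, 14.2 and 15.02 and 140.2, 130.2 and 135 CPM, a rise of 9.26-fold (log2 fold change 3.21, SE 0.057, adjusted p 1.36e-24). *TRIM21* is the cytosolic receptor for antibody-coated virus. It measured 16.7, 18.01 and 16.2 CPM with Cnsi and 93.6, 89.5 and 89.5 CPM with Cnsi IFNγ in libraries labelled A498 (log2 fold change 2.42, SE 0.055, adjusted p 1.52e-29), and 23.6, 24.8 and 24.6 against 90.4, 94.3 and 92.01 CPM in libraries labelled 786-O (log2 fold change 1.92, SE 0.050, adjusted p 4.25e-21). CPM were scaled within each line, so that levels of *TRIM21* were not compared between lines. *TRIM22*, a nuclear restriction factor of HIV transcription, measured 63.8, 66.4 and 63.5 CPM with Cnsi and 322, 339 and 325 CPM with Cnsi IFNγ in libraries labelled A498 (log2 fold change 2.35, SE 0.046, adjusted p 2.01e-31), and 106, 98.3 and 98.6 against 609, 621 and 636 CPM in libraries labelled 786-O (log2 fold change 2.62, SE 0.047, adjusted p 1.19e-24). *TRIM5*, the restriction factor of the HIV capsid, did not pass, with a log2 fold change of -0.17 and 0.21 in libraries labelled A498 and 786-O (adjusted p by edgeR 0.00975 and 0.00121).

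*TRIM47*, a ubiquitin ligase outside that list, measured 24.5, 24.6 and 23.3 CPM with Cnsi and 79.7, 75.8 and 86.4 CPM with Cnsi IFNγ in libraries labelled A498 (log2 fold change 1.74, SE 0.060, adjusted p 7.63e-24), and 74.9, 76.4 and 76.95 against 119, 135 and 134 CPM in libraries labelled 786-O (log2 fold change 0.76, SE 0.053, adjusted p 6.82e-12). The groups did not overlap in either line. An lncRNA on the opposite strand shares 51.6% of its exon bases. The reads were counted by strand.

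**Figure D2:**
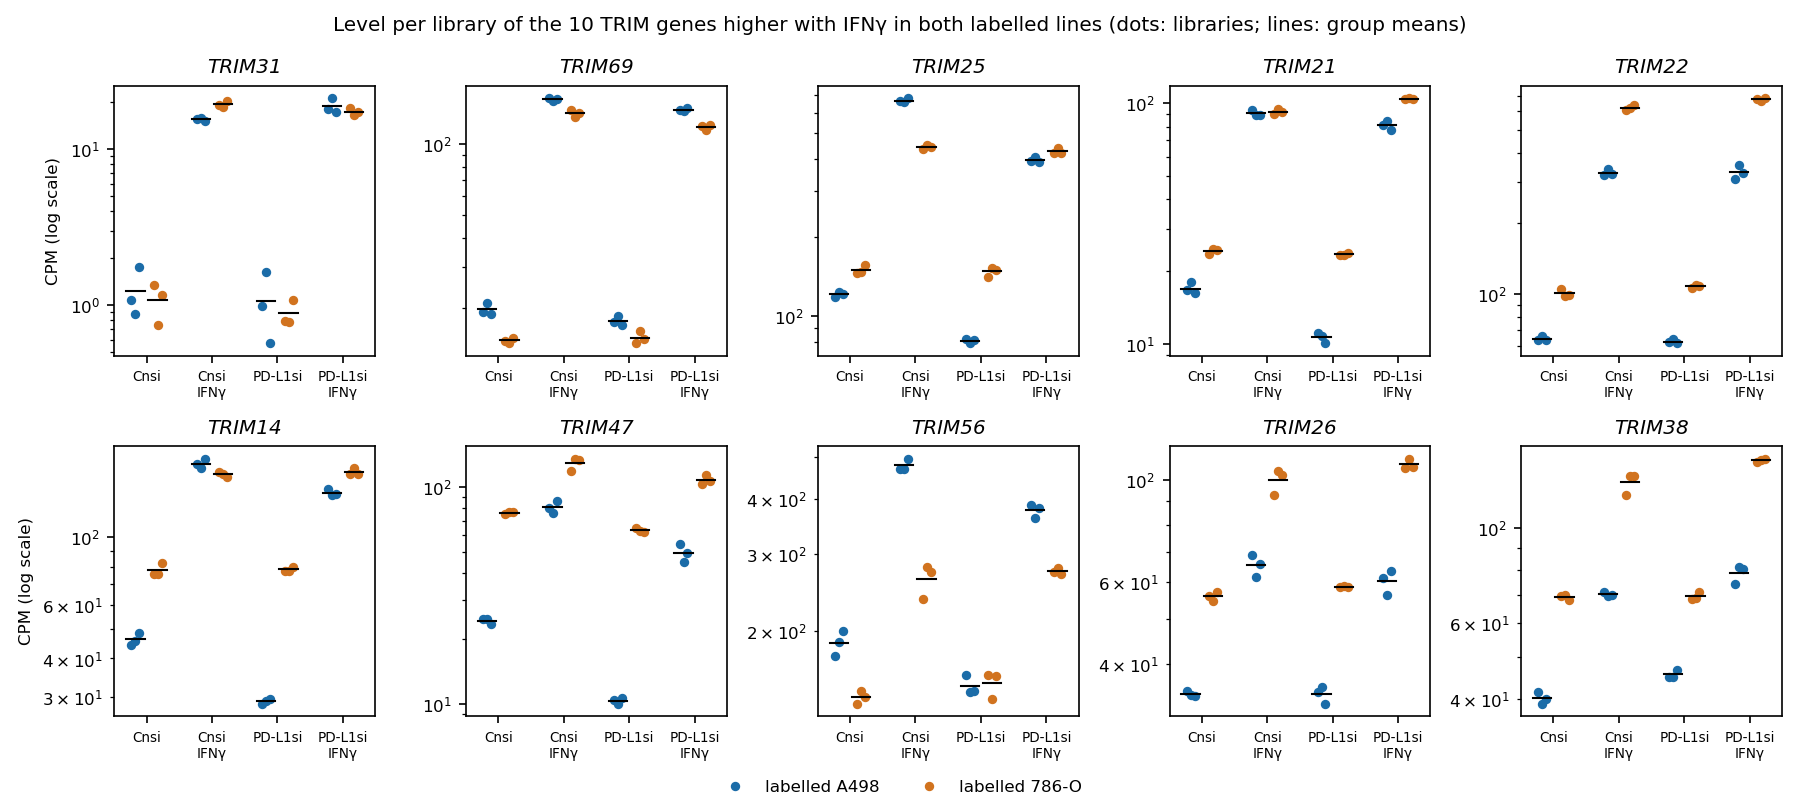
CPM per library on a log axis (y axis) by group (x axis) for the 10 TRIM members that rose with IFNγ in both lines, with blue dots for libraries labelled A498, orange dots for libraries labelled 786-O and a black line at each group's mean of 3 libraries. In each panel the IFNγ libraries lie above the libraries without IFNγ of the same line and siRNA. In libraries labelled A498 without IFNγ, *TRIM47*, *TRIM25*, *TRIM21* and *TRIM14* lie lower with PD-L1si than with Cnsi. *TRIM56* and *TRIM69* also lie lower there, short of the threshold.

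Among members tested in both lines, *TRIM9*, *TRIM35* and *TRIM66* rose in libraries labelled A498 and did not pass in libraries labelled 786-O. *TRIM9*, a COS-box ligase best known from neurons, measured 9.25, 11.4 and 10.05 CPM with Cnsi and 25.1, 23.9 and 23.6 CPM with Cnsi IFNγ in libraries labelled A498 (log2 fold change 1.24, SE 0.077, adjusted p 2.07e-16), and 8.47, 7.22 and 7.65 against 6.70, 8.25 and 6.94 CPM in libraries labelled 786-O, where the groups overlapped. *TRIM35* rose by 1.66-fold in libraries labelled A498 (log2 fold change 0.73, SE 0.071, adjusted p 3.41e-11). *TRIM66*, a PHD-bromodomain protein of chromatin, rose by 1.45-fold there (log2 fold change 0.54, SE 0.081, adjusted p 4.85e-07), and without Cnsi replicate 1 its log2 fold change was 0.45, under the threshold. In libraries labelled 786-O its log2 fold change was -0.32.

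*TRIM24* and *TRIM46* rose in libraries labelled 786-O and did not pass in libraries labelled A498. *TRIM24*, a PHD-bromodomain cofactor of nuclear receptors, measured 40.2, 40.6 and 43.4 CPM with Cnsi and 65.4, 71.96 and 70.8 CPM with Cnsi IFNγ (log2 fold change 0.75, SE 0.056, adjusted p 3.24e-11). In libraries labelled A498 it measured 55.9, 56.2 and 54.3 and 55.4, 54.3 and 52.1 CPM, and the groups overlapped. *TRIM46*, which organises axonal microtubules, had a log2 fold change of 0.52 (SE 0.12, adjusted p by edgeR 0.00123), which fell under 0.5 without Cnsi replicate 3 (0.38), Cnsi IFNγ replicate 3 (0.45) or PD-L1si replicate 1 (0.498).

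Members tested in 1 line alone added 4 rises and the call of *TRIM72*. *TRIM8*, which removes SOCS-1, an inhibitor of IFNγ signalling, measured 92.9, 92.6 and 92.9 CPM with Cnsi and 205, 188 and 206 CPM with Cnsi IFNγ in libraries labelled A498 (log2 fold change 1.10, SE 0.044, adjusted p 4.91e-22). *TRIM36*, a COS-box ligase bound to microtubules, measured 3.47, 3.98 and 3.23 CPM with Cnsi and 12.5, 12.1 and 13.9 CPM with Cnsi IFNγ (log2 fold change 1.84, SE 0.12, adjusted p 1.06e-15). Both were at 0 throughout the libraries labelled 786-O. *TRIM15* and *TRIM10* rose in libraries labelled 786-O from low counts. *TRIM15* had 14, 7 and 10 counts with Cnsi and 35, 21 and 28 counts with Cnsi IFNγ (log2 fold change 1.57, SE 0.32, adjusted p 2.57e-04). *TRIM10* had 11, 3 and 7 against 18, 12 and 11 counts, and its call was lost without Cnsi replicate 2 or 3 or Cnsi IFNγ replicate 1 and with DESeq2. *TRIM72*, a membrane repair protein of muscle, had no count in the 3 Cnsi libraries and 5, 3 and 2 counts with Cnsi IFNγ. It entered the test through its IFNγ groups alone, so that its call is not read as a rise, and its call with PD-L1 siRNA, from 1, 1 and 2 to 5, 4 and 5 counts, was lost on leaving out any 1 of these 6 libraries.

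The 4 members that fell in libraries labelled A498 were *TRIM6*, *TRIM45*, *TRIM52* and *TRIM55*. *TRIM6*, a PRY-SPRY ligase that makes unanchored ubiquitin chains for IKKε, measured 4.86, 5.13 and 3.71 CPM with Cnsi and 1.13, 1.59 and 1.06 CPM with Cnsi IFNγ, a fall to a level 3.57-fold lower (log2 fold change -1.83, SE 0.17, adjusted p 9.64e-12). In libraries labelled 786-O it measured 29.2, 29.2 and 31.2 against 30.02, 27.97 and 25.7 CPM, and the groups overlapped. *TRIM45* measured 2.03, 3.22 and 2.31 CPM with Cnsi and 1.05, 0.776 and 1.35 CPM with Cnsi IFNγ in libraries labelled A498 (log2 fold change -1.28, SE 0.21, adjusted p 1.95e-06). Its log2 fold change in libraries labelled 786-O was -0.46 (adjusted p by edgeR 4.54e-05), short of the fold threshold. *TRIM52* and *TRIM55*, the second a COS-box protein of the sarcomere, had log2 fold changes of -0.82 (SE 0.10) and -0.74 (SE 0.079) in libraries labelled A498 and of -0.18 and 0.02 in libraries labelled 786-O.

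By last domain, 9 of the 22 PRY-SPRY members tested rose and 1 fell in libraries labelled A498. In libraries labelled 786-O, 11 of 24 were called higher, among them *TRIM72*, whose call is not read as a rise. Of the 12 members tested with another or no such domain, 3 rose and 2 fell in libraries labelled A498, and 2 rose in libraries labelled 786-O. The 4 COS-box members tested gave 2 rises and 1 fall in libraries labelled A498 and 1 rise in libraries labelled 786-O. Each line had 1 rise among the 4 PHD-bromodomain members and none among the 2 NHL members tested. Over all genes tested, 18.2% rose and 18.5% fell in libraries labelled A498, and 11.1% rose and 7.39% fell in libraries labelled 786-O. *TRIM28* and *TRIM33*, the other chromatin members, had log2 fold changes of -0.25 and 0.23 in libraries labelled A498 and -0.10 and 0.03 in libraries labelled 786-O. In all, 21 of the 40 members tested in both lines passed in neither, among them *TRIM44*, which in libraries labelled A498 had a log2 fold change of 0.48 (SE 0.040).

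Neighbouring members did not all move one way. On the short arm of chromosome 11 (GRCh38), *TRIM21* (4384897-4393702) and *TRIM22* (5689610-5737089) rose in both lines, while *TRIM68* (4598672-4608231) lies between them and did not pass, at 0.43 and -0.03 in libraries labelled A498 and 786-O on the log2 scale. *TRIM6* (5596109-5612958) fell in libraries labelled A498, and *TRIM5* (5663195-5938619), whose annotated span holds that of *TRIM22* on the opposite strand, did not pass in either. *TRIM3* (6448613-6474459), an NHL member, had log2 fold changes of 0.18 and -0.39. Of the 7 members of this stretch that were tested, 3 rose and 1 fell in libraries labelled A498, and 2 rose in libraries labelled 786-O. The shares of all genes tested were 18.2% and 18.5% in libraries labelled A498 (higher and lower), and 11.1% higher in libraries labelled 786-O.

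**Figure D3:**
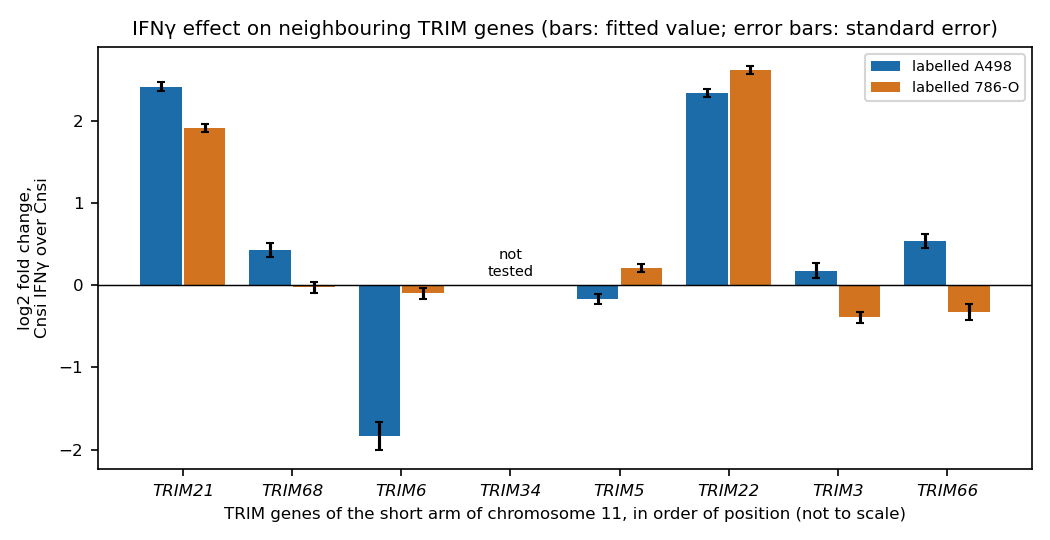
Log2 fold change with IFNγ in Cnsi cells (y axis; bars, fitted value; error bars, standard error) for the TRIM members on the short arm of chromosome 11 in their order along it (x axis, not to scale), in blue for libraries labelled A498 and orange for libraries labelled 786-O. *TRIM21* and *TRIM22* stand above 1.9 in both lines, and *TRIM6* at -1.83 in libraries labelled A498 and -0.10 in libraries labelled 786-O.

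Around the major histocompatibility complex on chromosome 6, 3 of 5 members tested rose in libraries labelled A498 (*TRIM26*, *TRIM31* and *TRIM38*) and 5 of 7 in libraries labelled 786-O, where *TRIM10* and *TRIM15* joined them. *TRIM31* (30102897-30113090), *TRIM10* (30151943-30161211), *TRIM15* (30163206-30172693) and *TRIM26* (30184455-30213427) lie within 1 stretch of it, and *TRIM38* (25962802-25991231) lies apart. *TRIM27* and *TRIM39*, the other 2 members tested there, passed in neither line. Of all genes tested, 18.2% rose in libraries labelled A498 and 11.1% in libraries labelled 786-O.

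The IFNγ effect was compared between lines as a difference on the log2 scale, 786-O minus A498, from 1 fit of all 24 libraries. That fit was scaled apart from the fits per line, so that it does not return the difference of the values given above. By the values per line, *TRIM21*, *TRIM56* and *TRIM68* would be short of 0.5. In the fit of all libraries the difference passed the threshold for 14 of 45 members tested, of which 4 were higher and 10 lower. Over all genes, 10.8% were higher and 13.1% lower. By the adjusted p alone the difference passed for 22 members (background 38.2%). Among the 10 members that rose in both lines, the rise was smaller in libraries labelled 786-O for *TRIM47* (difference -1.05, SE 0.085, adjusted p 3.22e-16), *TRIM25* (difference -0.97, SE 0.069, adjusted p 1.91e-18), *TRIM14* (difference -0.95, SE 0.072, adjusted p 4.02e-17), *TRIM21* (difference -0.58, SE 0.080, adjusted p 1.49e-08) and *TRIM56* (difference -0.53, SE 0.079, adjusted p 1.10e-07). The *TRIM56* difference was short of 0.5 without Cnsi replicate 1 of the libraries labelled A498 (-0.47) or Cnsi IFNγ replicate 1 of libraries labelled 786-O (-0.45). It was also short of it over protein-coding genes alone (-0.47) and with edgeR's filterByExpr as the filter. For *TRIM22*, *TRIM26*, *TRIM31*, *TRIM38* and *TRIM69* the difference did not pass, and it lay between -0.17 and 0.41 on the log2 scale. *TRIM9* (-1.42) and *TRIM6* (1.66) had the lowest and highest differences past the threshold, and *TRIM24* (0.71) was the second highest that no omitted library took under it.

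With PD-L1 siRNA, IFNγ raised 14 and lowered 4 of 44 members in libraries labelled A498 (background 17.6% higher and 15.9% lower) and raised 13 and lowered 1 of 46 in libraries labelled 786-O (background 11.0% and 7.45%). The 13 include *TRIM72*, without which 12 of 45 rose. When genes that passed the filter on 1 side alone were left out, 10.1% of all genes rose there. By the adjusted p alone 31 and 26 members passed, against 58.5% and 38.5% of all genes. The threshold was passed with both siRNAs in the same direction by 18 of 44 members in libraries labelled A498, against 26.9% of all genes. In libraries labelled 786-O it was passed by 12 of 45 without *TRIM72*, or 13 of 46 with it, against 13.6% of all genes. That last share still holds genes that passed the filter on 1 side alone. The rises with PD-L1 siRNA in libraries labelled A498 were led by *TRIM31* (4.17), *TRIM69* (2.98), *TRIM21* (2.93), *TRIM22* (2.39) and *TRIM25* (2.29, all log2 fold changes), and the falls were those of *TRIM6* (-1.61), *TRIM45* (-0.99), *TRIM52* (-0.70) and *TRIM55* (-0.54). In libraries labelled 786-O they were led by *TRIM31* (4.28), *TRIM69* (2.98), *TRIM22* (2.64) and *TRIM21* (2.15), and *TRIM66* fell (-0.55). *TRIM55* kept its direction and was short of 0.5 without PD-L1si replicate 1 (-0.47) or PD-L1si IFNγ replicate 3 (-0.45).

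The interaction of siRNA and IFNγ, positive where the IFNγ effect was higher with PD-L1si, passed for 2 of 44 members in libraries labelled A498 (background 1.81% higher and 0.645% lower) and 0 of 46 in libraries labelled 786-O (background 0.0377% and 0.0613%), where 5 members had an unadjusted p under 0.05 by edgeR and DESeq2 also gave 0. By the adjusted p alone it passed for 3 and 0 members, against 9.08% and 0.217% of all genes. The 2 members were *TRIM47* (interaction 0.53, SE 0.095, adjusted p 1.78e-04) and *TRIM21* (interaction 0.51, SE 0.084, adjusted p 5.58e-05). *TRIM21* measured 11.1, 10.8 and 10.04 CPM with PD-L1si and 81.5, 84.5 and 77.7 CPM with PD-L1si IFNγ, so that the siRNA groups were farther apart in fold without IFNγ than under it. Both interactions lie close to the threshold. That of *TRIM21* lost its call under 12 of 20 alternatives, which were DESeq2, relative log expression scaling, filterByExpr, no filter, protein-coding genes alone and the omission of any 1 of 7 libraries, with 0.45 as its lowest value. That of *TRIM47* lost its call under 3 of 20, at between 0.45 and 0.49 without Cnsi IFNγ replicate 2, PD-L1si replicate 2 or PD-L1si IFNγ replicate 1.

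The comparison of PD-L1si with Cnsi asks whether the siRNA pool against PD-L1 alters expression in the tumour cells themselves. With 1 pool against PD-L1 and 1 control pool, an effect of lower PD-L1 and another effect of the pool cannot be told apart. In libraries labelled A498 without IFNγ, 2 members rose and 6 fell of 44 (background 2.87% higher and 5.6% lower). Under IFNγ, 3 rose and 5 fell (background 4.36% and 5.75%), where 1 of the 3, *TRIM74*, had passed the filter through its PD-L1si groups alone and the count without it was 2 of 43. By the adjusted p alone 20 members passed without IFNγ and 24 under it (background 30.8% and 34.1%), and without PD-L1si IFNγ replicate 3 the 8 calls under IFNγ became 5. These comparisons share libraries with the IFNγ comparisons above, so that their values stand side by side and are not independent.

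*TRIM47* fell most in libraries labelled A498 without IFNγ, from 24.5, 24.6 and 23.3 CPM with Cnsi to 10.4, 10.02 and 10.6 CPM with PD-L1si (log2 fold change -1.22, SE 0.076, adjusted p 2.47e-15). Under IFNγ it went from 79.7, 75.8 and 86.4 CPM to 54.8, 45.2 and 49.4 CPM (log2 fold change -0.69, SE 0.056, adjusted p 2.68e-12). The groups did not overlap in either state. *TRIM25* went from 118, 124 and 122 to 81.7, 78.8 and 81.5 CPM without IFNγ (log2 fold change -0.59, SE 0.041, adjusted p 5.25e-14) and from 662, 657 and 681 to 393, 406 and 389 CPM under it (log2 fold change -0.75, SE 0.038, adjusted p 1.17e-17). With PD-L1si and IFNγ its level therefore stayed above that of Cnsi cells without IFNγ. *TRIM14* (-0.68) and *TRIM21* (-0.67) fell without IFNγ, and under IFNγ their log2 fold changes of -0.32 and -0.16 were short of the threshold.

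Of the 4 COS-box members tested in libraries labelled A498, 2 fell with PD-L1 siRNA without IFNγ and 3 under it, and none rose. Over all genes tested, 5.6% fell without IFNγ and 5.75% under it. *TRIM36* measured 3.47, 3.98 and 3.23 CPM with Cnsi and 2.85, 1.56 and 2.35 CPM with PD-L1si (log2 fold change -0.64, SE 0.16, adjusted p 0.00246), and 12.5, 12.1 and 13.9 against 6.33, 8.28 and 7.56 CPM under IFNγ (log2 fold change -0.80, SE 0.11, adjusted p 2.58e-07). Its change without IFNγ was -0.43 on the log2 scale without PD-L1si replicate 2. *TRIM55* fell by 0.77 and 0.57 on the log2 scale without and under IFNγ, and without PD-L1si IFNγ replicate 3 its change under IFNγ was -0.48. *TRIM9* changed by -0.49 without IFNγ, short of the threshold, and by -0.51 under it, where leaving out Cnsi IFNγ replicate 1 or PD-L1si IFNγ replicate 2 or 3 brought it to between -0.49 and -0.48. *TRIM46*, the remaining COS-box member tested, had log2 fold changes of -0.61 and -0.63 from at most 12 counts a library (adjusted p by edgeR 0.339 and 0.318).

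*TRIM6* and *TRIM2* were higher with PD-L1 siRNA in libraries labelled A498. *TRIM6* went from 4.86, 5.13 and 3.71 to 7.40, 7.07 and 6.41 CPM without IFNγ (log2 fold change 0.61, SE 0.12, adjusted p 8.01e-05) and from 1.13, 1.59 and 1.06 to 2.09, 2.22 and 2.52 CPM under it (log2 fold change 0.83, SE 0.20, adjusted p 0.00143). Without Cnsi replicate 3 its change in cells without IFNγ was 0.49. *TRIM2*, an NHL member of neurons, went from 10.2, 9.94 and 10.1 to 15.3, 15.4 and 14.03 CPM without IFNγ (log2 fold change 0.56, SE 0.074, adjusted p 1.47e-07), and its log2 fold change under IFNγ was 0.39. *TRIM45* rose under IFNγ by 0.61 on the log2 scale (SE 0.24, adjusted p by edgeR 0.0481), a call that was lost with DESeq2 and on leaving out any of several libraries, among them Cnsi IFNγ replicate 2 (0.41) and PD-L1si IFNγ replicate 3 (0.49).

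In libraries labelled 786-O, 1 member rose under IFNγ (background 1.29% higher and 1.74% lower) and 0 passed without it (background 1.19% and 1.63%), where edgeR gave 14 members with an unadjusted p under 0.05 and DESeq2 gave 1 call, *TRIM74*. By the adjusted p alone 8 members passed under IFNγ and 7 without it, against 14.0% and 12.8% of all genes. The member under IFNγ was *TRIM74*, with 14, 11 and 15 counts with Cnsi IFNγ and 72, 23 and 31 counts with PD-L1si IFNγ, and the call was lost without PD-L1si IFNγ replicate 1, which holds the 72 counts (0.93 on the log2 scale, against 1.61 with it), without any 1 of the Cnsi IFNγ libraries, and with DESeq2. In libraries labelled A498 *TRIM74* also passed under IFNγ, on 2, 0 and 1 counts against 9, 5 and 1 counts, which overlapped, and this call too was lost with DESeq2 or without Cnsi IFNγ replicate 2 or PD-L1si IFNγ replicate 1. The members that fell in libraries labelled A498 in either state had log2 fold changes in libraries labelled 786-O, without and under IFNγ, of -0.26 and -0.26 for *TRIM47*, -0.02 and -0.06 for *TRIM25*, -0.05 and 0.18 for *TRIM21*, 0.01 and 0.03 for *TRIM14*, 0.16 and -0.27 for *TRIM55*, and -0.30 and 0.14 for *TRIM9*, while *TRIM36* was at 0 there. The difference between lines in the siRNA effect was not tested. *CD274* itself fell by 0.94 on the log2 scale (SE 0.070) under IFNγ in these libraries and by 2.81 (SE 0.055) in libraries labelled A498.

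**Figure D4:**
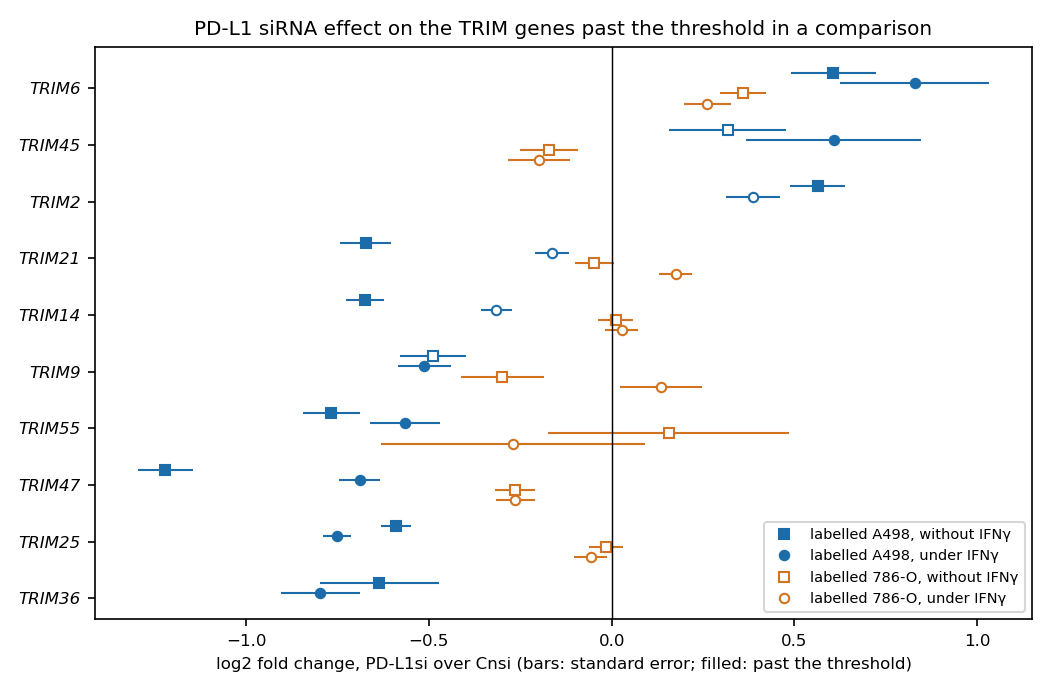
Log2 fold change with PD-L1 siRNA over control siRNA (x axis) for the TRIM members past the threshold in any of these comparisons (y axis; *TRIM74* left out for its low counts), with squares without IFNγ, circles under IFNγ, bars for the standard error and filled points where the threshold was passed. *TRIM47*, *TRIM25*, *TRIM36* and *TRIM55* lie left of 0 in both states in libraries labelled A498 (blue), and none of the points of libraries labelled 786-O (orange) is filled.

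The partners of these proteins in RIG-I and cGAS signalling were read from a list of 20 genes. With IFNγ in Cnsi cells, 11 of 20 rose and 1, *UBE2V1* (-0.54), fell in libraries labelled A498, and 10 of 19 rose in libraries labelled 786-O. The background was 18.2% higher and 18.5% lower in libraries labelled A498, and 11.1% higher in libraries labelled 786-O. *RIGI*, the sensor of viral RNA, rose by 3.61 and 2.74 on the log2 scale in libraries labelled A498 and 786-O, and *CGAS*, the sensor of cytosolic DNA, by 1.01 and 0.92. *STING1* rose in libraries labelled 786-O (0.71) and stood at 0.00 in libraries labelled A498. With PD-L1 siRNA in libraries labelled A498, none of the 20 rose and 6 fell, both without IFNγ and under it, among them *RIGI* (-0.85 and -0.67) and *ISG15* (-1.02 and -0.78), the ubiquitin-like modifier. Over all genes tested in libraries labelled A498, 5.6% fell without IFNγ and 5.75% under it. None of the 19 passed with PD-L1 siRNA in libraries labelled 786-O, where 1.63% and 1.74% of all genes fell and 1.19% and 1.29% rose.

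Upstream, *IRF1*, the transcription factor that carries much of the IFNγ response, rose by 4.62 and 4.77 on the log2 scale with Cnsi in libraries labelled A498 and 786-O, and *STAT2* by 2.48 and 2.37. Of the TRIM proteins with other names, *PML*, which forms nuclear bodies and is also called TRIM19, rose by 1.65 and 1.62. *MID1* and *MID2*, COS-box relatives, moved in opposite directions in libraries labelled A498 (-1.11 and 1.03). In libraries labelled 786-O *MID2* was near 0. *MID1* was at 0 in all of them, which may mean that it was not measured there, as for the members above.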

How the data were processed

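The authors deposited raw counts per gene for the 24 polyA libraries of 2 labelled lines, 4 groups and 3 replicates. Per their methods and processing notes, reads were trimmed with Trimmomatic 0.36.6, aligned to GRCh38 with HISAT2 2.1.0 and counted by strand with featureCounts 1.6.3. The counting settings given name a mapping quality minimum and neither of the options that keep reads aligned to several places or reads over several genes, so that such reads would have been left out, which lowers counts of near-identical copies and overlapping genes. Of the 39321 rows, 39148 matched GENCODE 44 by identifier without its version, which gave names, exon lengths and coordinates. No column was without a sample.

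Genes whose counts summed to at least 10 in a group, coding or noncoding, were tested per line with edgeR 4.0.16 in R 4.3.3 (TMM scaling, quasi-likelihood F-test, robust, 1 mean per group), with Benjamini-Hochberg adjustment over all genes tested. Calls needed an adjusted p under 0.05 and a log2 fold change over 0.5 in size. The difference between lines came from 1 fit of all 24 libraries. CPM are TMM-scaled. In simulated counts with 200 changed genes, 200 were recovered with 4 false calls for the IFNγ effect with Cnsi in each line, over 19421 genes for A498 and 19700 for 786-O. The changed genes were drawn from those of higher counts, with changes well past the fold threshold and 1 fixed spread for all genes. Recovery of changes near the threshold or on low counts was therefore not tested. Alternatives were DESeq2 1.42.0, other scaling, filters and fits, a replicate block, adjusted p alone and leaving out each library. Gene lists were described by counts and medians, without a test. The members and lists were chosen with earlier results of these data known. Named members are those called in any comparison, all of those called in both lines with IFNγ, up to 5 per direction with values, and members that the lists or positions set beside them. Tables of the study's own comparisons gave no value here. After the data were seen, counts were also taken without members that passed the filter through groups on 1 side of a comparison alone.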

Additional observations from a re-analysis of the deposited data

Results flagged for a closer look

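Differences between groups in the same contrast passed the test of the difference itself for 16 results. Within libraries labelled A498, the IFNγ effect differed between siRNAs (PD-L1si minus Cnsi, log2 scale, edgeR) by 0.51 for *TRIM21* and 0.53 for *TRIM47*. Between lines (786-O minus A498, log2 scale, edgeR, Cnsi cells), the IFNγ effect was higher by 1.66 for *TRIM6*, 0.74 for *TRIM45*, 0.71 for *TRIM24* and 0.56 for *TRIM52*. It was lower for 10 members, with differences of -1.42 for *TRIM9*, -1.05 for *TRIM47*, -0.97 for *TRIM25*, -0.95 for *TRIM14*, -0.94 for *TRIM66*, -0.82 for *TRIM35*, -0.65 for *TRIM3*, -0.58 for *TRIM21*, -0.54 for *TRIM68* and -0.53 for *TRIM56*. *TRIM45* lost its call without Cnsi replicate 2 (0.52) or Cnsi IFNγ replicate 2 (0.54) of the libraries labelled A498. *TRIM52* lost it without Cnsi replicate 3 of those labelled A498 (0.49) or 786-O (0.44), and *TRIM68* without Cnsi replicate 3 of those labelled 786-O (-0.48) or, by a narrow margin, Cnsi IFNγ replicate 1 of those labelled A498. *TRIM68* and *TRIM56* also lost it with filterByExpr and over protein-coding genes only. The lines were sequenced on different instruments, which cannot be told apart from the line here. Groups held 3 libraries, so that single libraries were not tested as outliers.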

How the results depend on the processing

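Of the 99 member values past the threshold, 81 kept their direction and their call under every alternative run, 18 lost the call under at least 1, and 0 turned direction. Values short of the threshold were not counted among these. The 81 include *TRIM72* with IFNγ and Cnsi in libraries labelled 786-O, whose call is not read as a rise. By the adjusted p alone, without the fold threshold, the counts of members were 31 with IFNγ and Cnsi in libraries labelled A498, 31 and 26 with IFNγ and PD-L1si (A498 and 786-O), 24 and 8 with PD-L1si under IFNγ, 20 and 7 without it, and 22 for the difference between lines. The 1 call with PD-L1si under IFNγ in libraries labelled 786-O became 0 with DESeq2 and when only the groups compared were fitted. Without IFNγ, the 0 there became 1 with DESeq2, 2 with no filter and 1 with only the groups compared. The interaction count of 2 in libraries labelled A498 became 1 with DESeq2, relative log expression scaling, filterByExpr, no filter and protein-coding genes only. For these counts the cause was not tested. Leaving out members that passed the filter through 1 side alone, an alternative chosen after seeing the data, gave 14 (IFNγ with Cnsi) and 13 calls (IFNγ with PD-L1si) in libraries labelled 786-O, and 7 under IFNγ and 8 without it for PD-L1si in libraries labelled A498. Leaving out 1 library gave 18 to 20 calls (A498) and 13 to 15 (786-O) for IFNγ with Cnsi, 17 to 19 and 13 to 14 for IFNγ with PD-L1si, 5 to 8 and 0 to 1 for PD-L1si under IFNγ, 7 to 9 and 0 to 1 without it, 0 to 2 and 0 to 0 for the interaction, and 12 to 15 for the difference between lines.

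Replicate numbers were not used to pair the libraries in the main fit. Correlations of same-numbered deviations ran from -0.0964 to 0.248 (A498) and from -0.322 to 0.268 (786-O). Their means were 0.0499 and 0.0280, against -0.0249 and -0.0136 for other numbers. Of 18 same-numbered pairs in each line, 3 and 5 exceeded 0.1. Whether same-numbered libraries belong together was not settled by these values. In a fit with a replicate block, the counts were 19 and 15 for IFNγ with Cnsi, 18 and 13 for IFNγ with PD-L1si, 8 and 1 for PD-L1si under IFNγ, 8 and 0 without it, 2 and 0 for the interaction, and 14 for the difference between lines. Depth limits members under about 10 counts a library, such as *TRIM72*.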
